A study of Mus musculus with 6 samples.

Results

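Meis1, Meis2, Meis3, Pbx2, Pbx3, Pbx4 and Pknox1 encode homeodomain proteins of the TALE class that serve as partners of the Hox transcription factors. They were chosen by name as a family, and the 7 genes were all measured among the 18193 genes on the array. Each gene was represented by its brightest probe set (by mean log2 intensity over the 6 arrays), and the 11 other probe sets of the family served as a check. LSK are haematopoietic stem and multipotent progenitor cells that are low in lineage markers and carry Sca-1 and Kit, and they were compared with LK, the committed progenitors that are low in lineage markers, carry Kit and lack Sca-1. Both were sorted by flow cytometry from wild-type C57BL/6 mice, with no treatment other than lysis, and each had 3 arrays. The labels give neither the age of the mice nor whether the arrays of a population came from different animals, and p-values here therefore reflect only how much these samples vary, in part perhaps for technical reasons.

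Hox proteins bind DNA weakly and with little choice of site on their own, and they gain affinity and specificity by pairing with TALE partners. Pbx proteins bind DNA beside a Hox protein, while Meis and Pknox (Prep) proteins bind Pbx through their amino-terminal regions and help bring it to the nucleus, so that complexes of Hox, Pbx and Meis form on enhancers. In mouse blood, Meis1 is required for stem cell maintenance and, when overexpressed with Hoxa9, drives acute myeloid leukaemia.

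The sorted populations carried the marker pattern of their labels. Of 10 measured stem and multipotent progenitor markers, 7 were higher in LSK and 0 lower, among them Mecom (log2 difference 4.87, limma adjusted p = 0.000685) and Cd34, which had the highest mean intensity of the list (log2 difference 1.36, adjusted p = 0.0111). Of all genes tested, 3.84% were called higher in LSK and 2.89% lower. When only the 7508 genes with a mean log2 of at least 4 were tested, 726 passed as higher and 723 as lower. The gene for Sca-1 itself is not analysed here. LSK cells had less erythroid and myeloid message: 5 of 7 erythroid markers were lower, led by Ermap (log2 difference -6.35, adjusted p = 0.00133) and with Tfrc the most intense (-1.55, adjusted p = 0.0139), and 6 of 8 granulocyte and monocyte markers, led by Elane (-2.81, adjusted p = 0.041) and with Mpo the most intense (-1.16, adjusted p = 0.0323). The summed intensity of the erythroid markers ran over 681 to 1140 in LSK and 4600 to 8470 in LK, and that of the granulocyte and monocyte markers over 4750 to 10200 in LSK and 16000 to 30600 in LK. The part of this difference in make-up in the results below was not tested, and in such sorted pools a smaller share of cells that express a gene cannot be told apart from less RNA per cell. Leaving out any of LSK replicates 1 and 2 and LK replicates 2 and 3 took the 6 granulocyte and monocyte calls to 0 in limma (with adjusted p as high as 0.148 among the fits without a single array), and 3 erythroid markers remained past the threshold without LK replicate 3. No marker passed among 7 megakaryocyte genes (Pf4 the most intense, log2 difference -1.18, adjusted p = 0.0935), 6 B-cell genes (Cd79b, -0.01, adjusted p = 0.985), 7 T-cell and NK-cell genes (Nkg7, -0.95, adjusted p = 0.2) or 7 stromal and endothelial genes (Cxcl12, -0.09, adjusted p = 0.839), all of the last with mean log2 intensities under 4 in both populations. At an unadjusted limma p under 0.05 these lists held 3, 0, 1 and 0 genes. When replicates were blocked, 5 more markers passed. Kit (log2 difference 0.81, adjusted p = 0.0185, 0.124 unblocked) took the stem and multipotent progenitor count to 8, Epor (-1.78, 0.0262, 0.0794 unblocked) the erythroid count to 6 and Csf1r (-2.19, 0.0215, 0.0793 unblocked) the granulocyte and monocyte count to 7. Among the megakaryocyte genes, Gp9 passed as higher in LSK (0.98, adjusted p = 0.0241, 0.067 unblocked) and Pf4 as lower (adjusted p = 0.0433). With all probe sets of a gene averaged, the log2 differences shrank to 1.70 for Mecom and -1.03 for Tfrc.

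The arrays numbered 2 stood apart from the others in both populations. On the second principal component, which held 21.6% of the variance, they lay at -31.7 in LSK and -41.2 in LK, and the other arrays at 7.25 to 29.8. An array's 3' bias, taken as the log2 intensity of the 3' minus the 5' control sets for Actb and Gapdh, reflects RNA integrity and amplification and was 2.32, 2.32 and 3.30 in LSK replicates 1 to 3 and 3.26, 3.94 and 3.40 in LK replicates 1 to 3. It was lower in LSK than in LK within each of the 3 replicate numbers, by little for number 3. In a limma fit that also held this bias, 25 genes of the whole array passed. Among the markers above, 3 stem and multipotent progenitor markers, 0 erythroid markers and 0 granulocyte and monocyte markers passed in it. Median log2 intensity over the probe sets was 2.98 to 3.09, so values near 3 lie in the dim part of the array and their folds are compressed. Precision is limited throughout by having 3 arrays in a population.

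Among the cofactors, Meis1 was the member past the threshold, and it was higher in LSK. Its log2 intensity was 7.38, 8.20 and 7.01 in LSK replicates 1 to 3, against 4.25, 4.32 and 3.38 in LK replicates 1 to 3. All 3 LSK arrays lay more than 2 log2 units above every LK array, and the LK values reached into the dim part of the array. The means were 7.53 ± 0.61 in LSK and 3.98 ± 0.53 in LK (SD, n = 3 each). LSK exceeded LK by 3.55 on the log2 scale (SE 0.38), which is 11.7-fold (limma, adjusted p = 0.00581 over all genes), and by 3.13, 3.88 and 3.63 within the pairs of replicates 1, 2 and 3. Leaving out any 1 array kept the call, with log2 differences between 3.21 and 3.81 and adjusted p between 0.0108 and 0.0314. When the fit also held the 3' bias of each array, the Meis1 difference was 3.18 and the adjusted p 0.167, a setting in which 25 genes of the whole array passed.

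**Figure D1:**
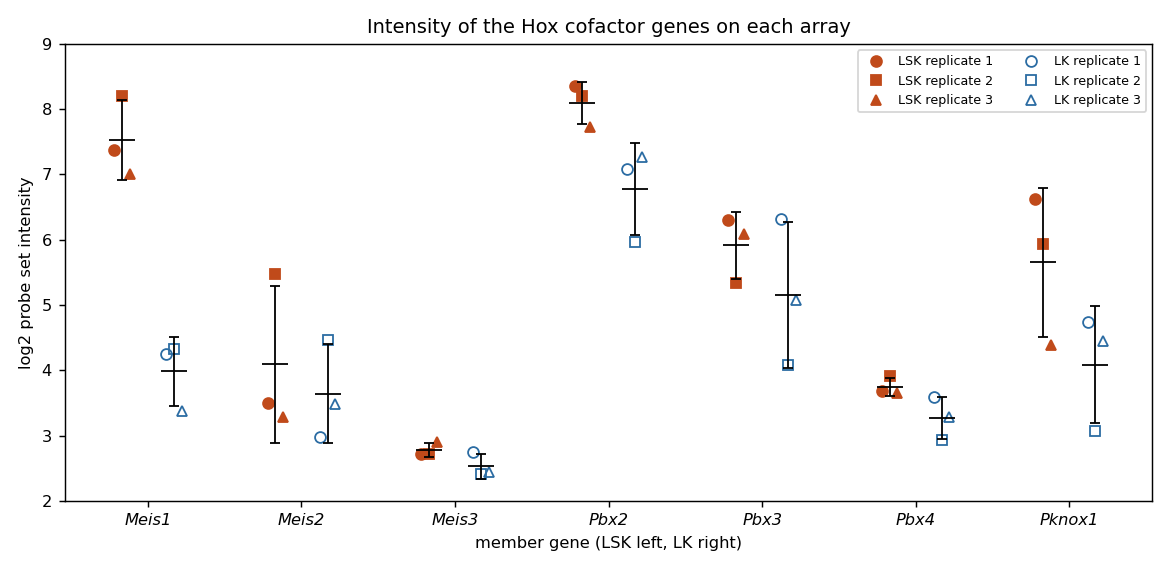
Log2 probe set intensity (vertical axis) of the 7 cofactor genes on each array, with LSK in filled symbols left of LK in open symbols; symbols mark the replicate number, and the horizontal bar and whiskers are the mean and SD over 3 arrays. The LSK points of Meis1 (7.01 to 8.20) sit far above its LK points (3.38 to 4.32), whereas the points of Meis2, Meis3, Pbx3 and Pknox1 overlap between the populations.

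Of the 7 members, 1 was higher in LSK at a limma adjusted p under 0.05 and 0 were lower, beside 6.73% of all genes called in either direction (3.84% higher and 2.89% lower in LSK). In a fit blocked by replicate number the members' count was again 1 higher, beside 14.4% of all genes called in either direction and 7.02% called higher. A count of 1 in 7 is too small to be set apart from these shares. The log2 difference was above 0 for all 7 members, against 46.6% of the genes tested, and the median was 0.76 among the members, against -0.02 over all genes. The intensities in LSK lay above all of those in LK for 3 members (Meis1, Pbx2 and Pbx4), against 13.2% of genes. These counts describe the family and are not a test of it.

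All 3 Meis1 probe sets were higher in LSK at an adjusted p under 0.05 over the 45037 probe sets, of which 3.21% passed and 2.03% passed as higher in LSK. The second brightest, 1459423_at, gave a log2 difference of 3.65 (SE 0.33, limma adjusted p = 0.00652), with intensities of 7.17, 7.80 and 6.57 in LSK and 3.85, 3.52 and 3.22 in LK. The third, 1450992_a_at, whose suffix marks a set that matches several transcripts of the gene, gave 1.78 (SE 0.24, limma adjusted p = 0.0166). It was dimmer in LSK than the other sets, with 5.29, 5.62 and 5.72 in LSK, against 4.17, 3.77 and 3.34 in LK. The direction was thus shared by the sets while the size was not, and the mean over the 3 sets gave a log2 difference of 2.99.

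Of the paralogs of Meis1, Meis3 was dim in both populations, and Meis2 was low except on the arrays numbered 2. Meis2 had log2 intensities of 3.51, 5.47 and 3.29 in LSK and 2.98, 4.46 and 3.49 in LK. Its values were highest on the arrays numbered 2 of both populations, and the groups overlapped. The log2 difference of 0.45 (SE 0.64, limma adjusted p = 0.749, 95% interval -1.09 to 1.98) turned to -0.24 without LSK replicate 2. The other 3 Meis2 probe sets had means of 2.32 to 2.91, and none passed. Meis3, known by a single probe set here, had 2.72, 2.72 and 2.91 in LSK and 2.75, 2.40 and 2.43 in LK. The groups overlapped, and the log2 difference was 0.25 (95% interval -0.10 to 0.61, limma adjusted p = 0.386). At these levels a difference would be compressed, so the interval limits the intensity measured and not the transcript.

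The promoter of Meis1 is shown because an ETS factor, Elf1, is among the regulators reported for this gene in blood cells and is measured below. The stretch is the 250 bases before a RefSeq start site in GRCm38.p6, and it was searched on both strands with the ETS core CCGGAAGT, the Meis and Pknox core TGACAG and the Pbx and Hox core TGATTNAT, none of which overlap. RefSeq promoters were found for 5 of the 7 members. Matches stand in capitals, and the Meis3 promoter is printed beside that of Meis1 because it was the only other member's to hold any of these letters.
Meis1 (chr11:19018970-19019219, minus strand): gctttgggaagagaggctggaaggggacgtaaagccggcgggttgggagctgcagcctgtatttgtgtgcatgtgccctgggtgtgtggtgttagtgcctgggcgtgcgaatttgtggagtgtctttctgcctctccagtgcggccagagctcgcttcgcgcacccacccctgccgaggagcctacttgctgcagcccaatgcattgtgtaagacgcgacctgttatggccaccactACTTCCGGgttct
Meis3 (chr7:16175145-16175394, plus strand): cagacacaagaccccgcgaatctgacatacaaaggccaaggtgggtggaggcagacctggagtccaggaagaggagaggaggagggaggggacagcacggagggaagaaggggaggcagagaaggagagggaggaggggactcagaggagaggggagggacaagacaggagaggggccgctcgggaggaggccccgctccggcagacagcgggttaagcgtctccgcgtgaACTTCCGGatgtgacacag
Each held the ETS core once, read as ACTTCCGG on the gene's strand and beginning 13 bases before the start in Meis1 and 19 bases before it in Meis3. The letters occur in 2.88% of the 32851 RefSeq promoter stretches of this length, TGACAG in 15.9% and TGATTNAT in 2.82%. Both stretches lie inside the annotated span of their gene, which reaches further upstream, so each covers the surroundings of a single start site. A match is a description of the letters, and its part in the expression of either gene was not tested.

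Pbx2, Pbx3 and Pbx4 encode the Pbx partners that bind DNA beside Hox proteins. Pbx2 had log2 intensities of 8.35, 8.20 and 7.73 in LSK, against 7.09, 5.97 and 7.27 in LK. The groups did not overlap, but the lowest LSK array and the highest LK array were close. The means were 8.09 ± 0.32 in LSK and 6.77 ± 0.70 in LK (SD, n = 3 each), a log2 difference of 1.32 (SE 0.36) or 2.50-fold. This missed the threshold (limma, adjusted p = 0.0823, and 0.0553 when replicates were blocked), with a 95% interval of 0.46 to 2.19. It passed in 4 of 15 alternatives: renewed quantile normalisation (adjusted p = 0.0462), cyclic loess normalisation (0.0424), a test of the genes with a mean log2 of at least 4 alone (0.0478), and trend and robust variances (0.0445).

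The probe sets of Pbx2 differed in size. Set 1449261_at gave a log2 difference of 1.03 (SE 0.21, limma adjusted p = 0.0522), and it passed over all probe sets when replicates were blocked (adjusted p = 0.0198). Set 1418893_at, which was bright in both populations with means of 7.43 in LSK and 7.19 in LK, gave 0.23 (SE 0.26, limma adjusted p = 0.706). The set that represents the gene carries the suffix of sets that can also match other transcripts, and their part in its larger difference was not tested. The sets that represent Pbx3, Hoxa3, Trib2 and Itsn1 below carry this suffix too, and the same limit holds for their values. It also holds for Myb below, whose set carries another suffix given to sets that can match other transcripts.

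Pbx3 was the member with the widest spread among the LK arrays. It had 6.31, 5.34 and 6.09 in LSK, against 6.31, 4.08 and 5.08 in LK. LK replicate 1 was as high as the highest LSK array, and the groups overlapped. The log2 difference was 0.76 (SE 0.56, limma adjusted p = 0.503), with a 95% interval of -0.58 to 2.09. Pbx4, which in mouse is best known from testis, had 3.68, 3.91 and 3.66 in LSK and 3.58, 2.93 and 3.28 in LK. Its groups did not overlap, yet the gap was under 0.1 log2 units, and the difference of 0.48 (SE 0.19, limma adjusted p = 0.206) did not pass. Neither gene's other probe set passed, with log2 differences of 0.12 for Pbx3 and 0.36 for Pbx4.

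Pknox1 encodes Prep1, which competes with Meis proteins for Pbx and is itself required for normal blood formation in mouse. Its log2 intensity was 6.63, 5.94 and 4.39 in LSK and 4.74, 3.06 and 4.45 in LK. LSK replicates 1 and 2 were high, and LSK replicate 3 lay within the LK values. The log2 difference of 1.57 (SE 0.66) was the second largest of the family, and it did not pass (limma adjusted p = 0.223, 95% interval -0.00 to 3.14). Of its other probe sets, 1437470_at gave 0.57 (adjusted p = 0.324) and 1421233_at gave 0.04 (adjusted p = 0.96).

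The Pknox1 values moved with the 3' bias of the arrays, and those of Meis1 did so less. LSK replicate 3 and LK replicates 1 and 3 had a similar 3' bias of 3.30, 3.26 and 3.40. On these arrays Pknox1 had 4.39 in LSK and 4.74 and 4.45 in LK, while Meis1 had 7.01 in LSK and 4.25 and 3.38 in LK. Pbx2 lay between, with 7.73 in LSK and 7.09 and 7.27 in LK. With the bias in the fit, the log2 difference of Pknox1 was -0.30 (adjusted p = 0.923) and that of Pbx2 was 0.49 (adjusted p = 0.825). In the same fit it was 0.19 for Pbx3, 0.17 for Pbx4, 0.20 for Meis2 and 0.28 for Meis3. Without the bias these were 0.76, 0.48, 0.45 and 0.25. The bias was lower in LSK than in LK within each replicate number, so bias and population cannot be told apart here. Whether the bias causes any of these differences was not tested.

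**Figure D2:**
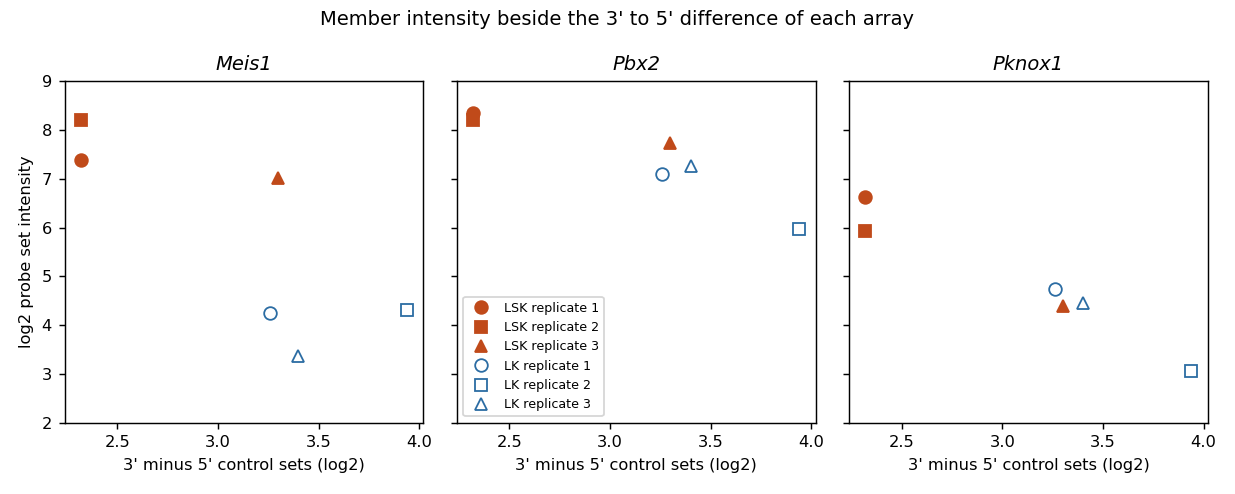
Log2 intensity of Meis1, Pbx2 and Pknox1 (vertical axis) on each array against its 3' bias in log2 units, from the Actb and Gapdh controls (horizontal axis), with LSK filled and LK open and symbols for the replicate number. Where the bias is 3.26 to 3.40, Meis1 in LSK (7.01) stays above its LK points (3.38 and 4.25), and Pknox1 in LSK (4.39) falls beside its LK points (4.45 and 4.74).

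Over the 18 probe sets of the family, 3 passed, all of Meis1, and the log2 difference was above 0 in all 18, against 48.6% of all probe sets. The differences ran from 0.04 to 3.65. For 5 of the 6 genes with several sets (Meis2, Pbx2, Pbx3, Pbx4 and Pknox1, but not Meis1) the set chosen for its intensity also gave the largest difference of the gene. The mean over all sets of a gene lowered the log2 differences to 0.25 for Meis2, 0.86 for Pbx2, 0.44 for Pbx3, 0.42 for Pbx4 and 0.73 for Pknox1.

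**Figure D3:**
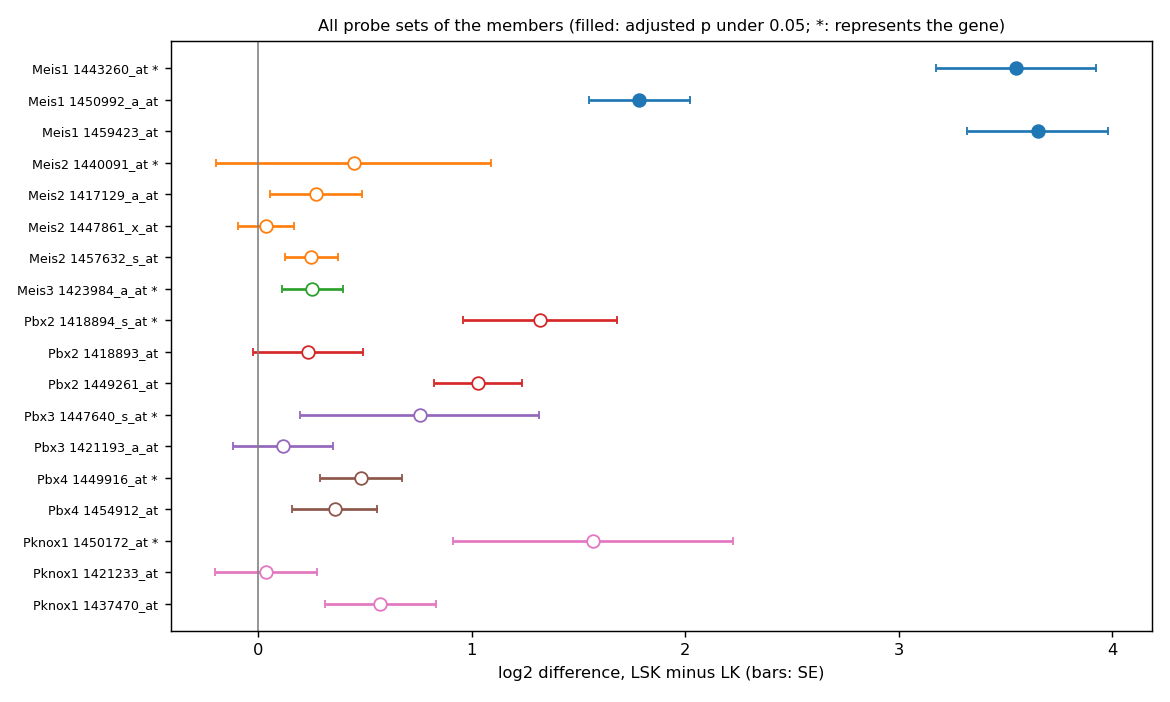
Log2 difference, LSK minus LK, of each of the 18 probe sets of the 7 genes (horizontal axis, with bars for the SE); filled points passed an adjusted p of 0.05 over all probe sets, and an asterisk marks the set that represents the gene. The 3 Meis1 sets, at 1.78 to 3.65, are the filled ones, and the sets of Pbx2 and Pknox1 spread from near 0 to 1.32 and 1.57.

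The Hox genes are the partners of these proteins on DNA. Of 33 measured Hox genes, 5 rose in LSK, 0 fell and 28 did not pass, beside 3.84% of all genes called higher and 2.89% lower. Mean log2 intensities were under 4 in both populations for 27 of the Hox genes. The list's median log2 difference was 0.04, against -0.02 over all genes. Hoxa10 had 8.08, 8.21 and 7.62 in LSK and 4.44, 4.18 and 4.06 in LK (log2 difference 3.74, SE 0.20, adjusted p = 0.000685), and Hoxa3 had 6.87, 7.05 and 6.52 in LSK and 3.35, 3.29 and 3.30 in LK (log2 difference 3.50, SE 0.17, adjusted p = 0.000597). The other 3 were Hoxa9 (2.23), Hoxb3 (1.88) and Hoxa5 (1.54), with adjusted p from 0.00239 for Hoxa9 to 0.00879 for Hoxa5. Hoxa9 is also counted among the stem and multipotent progenitor markers above. With all probe sets of a gene averaged, the 5 genes still passed, but the log2 differences were 2.09 for Hoxa10, 1.22 for Hoxa3, 1.43 for Hoxa9, 1.14 for Hoxb3 and 1.13 for Hoxa5, against 2.99 for Meis1. All 5 kept their call without any 1 array, while in the fit with the 3' bias Hoxa10 and Hoxa3 alone did.

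Of 8 other TALE homeobox genes (Tgif1, Tgif2 and the Irx family), 0 passed in limma and 2 were at an unadjusted p under 0.05, and the 6 Irx genes averaged under 4 on the log2 scale in LSK as well as in LK. The list's median log2 difference was 0.19. Tgif1, a corepressor of TGF-beta and retinoid signalling, had the lowest p, with 4.67, 3.72 and 4.37 in LSK and 3.30, 3.43 and 3.68 in LK (log2 difference 0.78, SE 0.26, adjusted p = 0.133). Its paralog Tgif2 had 5.63, 5.65 and 4.93 in LSK and 5.06, 4.66 and 4.37 in LK, and its log2 difference of 0.71 passed when replicates were blocked (adjusted p = 0.0367, and 0.175 unblocked). A single TALE gene was past the threshold without LSK replicate 2.

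Of 8 measured genes upstream of Meis1 or binding the complex, 3 were higher in LSK and 0 lower, beside 3.84% and 2.89% of all genes. The list is brighter than the array, with mean log2 intensities under 4 in both populations for 1 of the 8, against 10225 of the 18193 genes. With only genes of a mean log2 of at least 4 tested, 19.3% passed in either direction, and 4 genes of this list passed as higher. The median log2 difference of the 8 was 0.70. Kmt2a encodes the histone methyltransferase MLL, which keeps Hox genes and Meis1 active. It had 9.26, 9.17 and 8.49 in LSK and 7.86, 7.34 and 7.37 in LK (log2 difference 1.45, SE 0.26, adjusted p = 0.0254). Crebbp, a histone acetyltransferase, had 11.62, 11.69 and 11.39 in LSK and 10.64, 10.66 and 10.42 in LK (0.99, SE 0.15, adjusted p = 0.0141). Elf1, the ETS factor named above, had 8.61, 8.57 and 8.63 in LSK and 8.00, 7.64 and 7.95 in LK (0.74, SE 0.14, adjusted p = 0.0329), and 1.48 with its probe sets averaged. The groups of these 3 genes did not overlap, and LSK lay wholly above LK for 13.2% of all genes.

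When replicates were blocked, 5 of the 8 passed, with Pbxip1, which encodes a Pbx-binding protein (log2 difference 0.94, adjusted p = 0.0201, 0.0597 without), and Crtc1, a CREB coactivator (0.67, adjusted p = 0.0329, 0.334 without). The 3 calls rest on few arrays. Leaving out LSK replicate 1, LK replicate 3 or both arrays numbered 2 brought the count to 0, leaving out LSK replicate 2 or LK replicate 2 brought it to 1, and Elf1 was lost in each fit without 1 array (adjusted p up to 0.109). In the fit with the 3' bias of each array the count was also 0. Men1, the Kmt2a partner menin, and Dot1l, another MLL-associated methyltransferase, had log2 differences of -0.15 (adjusted p = 0.807) and 0.05 (adjusted p = 0.939). Men1 was dim, with means of 3.28 in LSK and 3.43 in LK, where a difference would be compressed, and Dot1l was bright, with 7.33 in LSK and 7.28 in LK.

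Among 12 genes linked to Meis1 in blood cells, 6 were higher in LSK, 1 was lower and 5 did not pass, with a median log2 difference of 1.07. Of all genes, 3.84% were called higher and 2.89% lower. This list too is brighter than the array, with means under 4 in both populations for 1 of the 12. With only genes of a mean log2 of at least 4 tested, 19.3% passed in either direction, and 7 genes of the list passed as higher and 1 as lower. Hlf, Flt3 and Cd34 are also on the list of stem and multipotent progenitor markers above, and Pf4 on that of megakaryocyte genes. These genes are thus counted in both places, and the count is not separate from the marker pattern of the populations. Hlf, a stem cell transcription factor, had 9.83, 9.80 and 9.48 in LSK and 5.86, 5.63 and 5.21 in LK (log2 difference 4.14, adjusted p = 0.000629). Flt3, a cytokine receptor whose transcription Meis1 raises in mouse progenitor lines, had 7.67, 7.26 and 8.04 in LSK and 4.05, 3.46 and 3.40 in LK (4.02, adjusted p = 0.00127). The other higher genes were Erg (1.46, adjusted p = 0.0189), Sox4 (1.39, adjusted p = 0.0115), Cd34 (1.36) and Lmo2 (0.79, adjusted p = 0.0235). Of the 6 higher genes, 2 passed without LSK replicate 1, without LK replicate 3 or in the fit with the 3' bias.

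Trib2, a pseudokinase gene that cooperates with Hoxa9 in mouse leukaemia, went the opposite way to Meis1. It had 5.39, 5.52 and 4.91 in LSK, against 9.02, 7.60 and 7.28 in LK, with no overlap (log2 difference -2.69, SE 0.45, adjusted p = 0.0214), and the call was lost when LSK replicate 1, LSK replicate 2 or both arrays numbered 2 were left out (adjusted p up to 0.0776 in fits without 1 array). The Trib2 call was also lost in the fit with the 3' bias. The log2 difference of Trib2 was -1.12 with its probe sets averaged. Pf4, a platelet chemokine gene on which Meis1 acts in megakaryocytes, had 6.48, 6.51 and 6.87 in LSK and 8.37, 7.04 and 7.97 in LK, and with Ccl3 it passed when replicates were blocked, which gave 7 higher and 2 lower genes of the 12. Ccl3, a chemokine gene, had 9.69, 7.96 and 10.20 in LSK and 7.14, 4.84 and 7.18 in LK (log2 difference 2.90, adjusted p = 0.084, and 0.00167 when replicates were blocked). Hif1a, a hypoxia factor reported downstream of Meis1 in stem cells, differed by -0.01 (SE 0.18, adjusted p = 0.99) and Myb by -0.24 (SE 0.15, adjusted p = 0.413), both at bright levels. Epas1 had means of 2.79 in LSK and 3.03 in LK, in the dim part of the array.

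**Figure D4:**
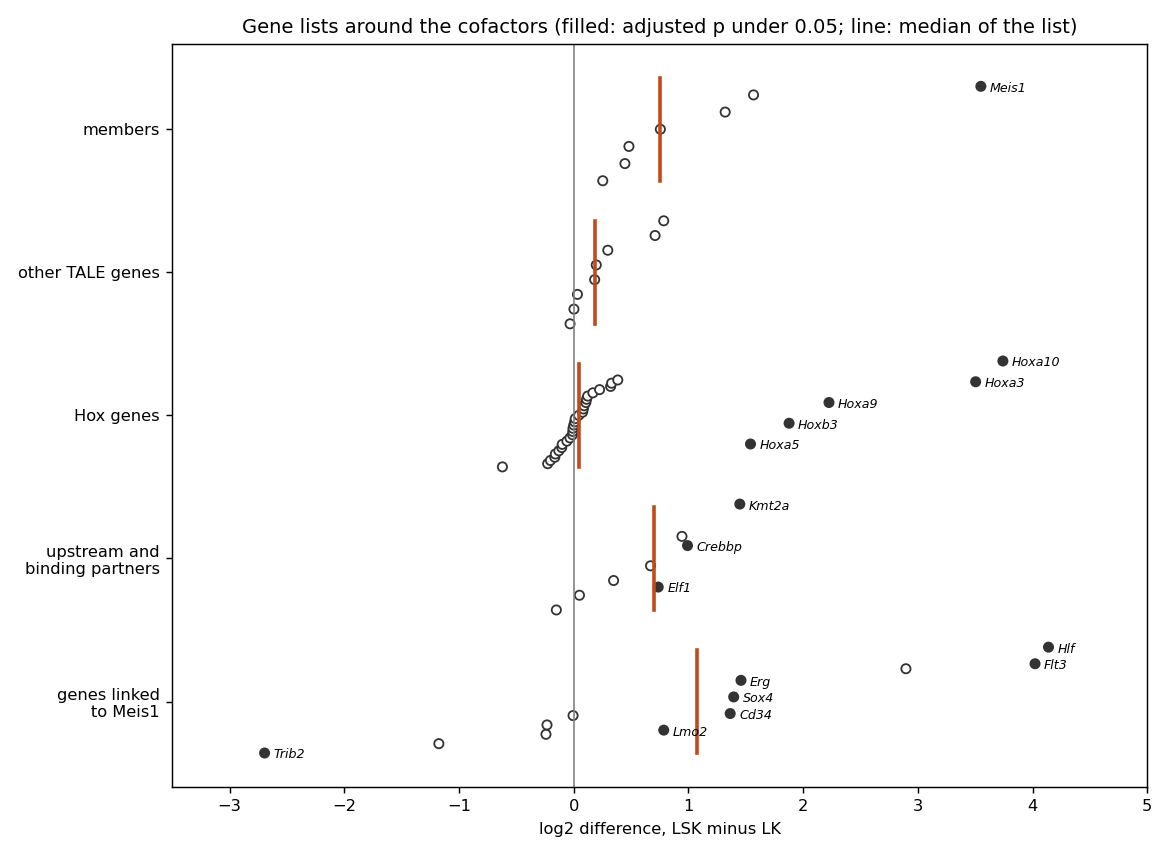
Log2 difference, LSK minus LK (horizontal axis), of each gene in 5 lists, with filled points for an adjusted p under 0.05 and a line at the median of each list; the height within a list only spreads the points. Each gene is drawn by its brightest probe set, by which Meis1 stands at 3.55, Hoxa10 at 3.74 and Hoxa3 at 3.50, and Trib2 (-2.69) is the filled point below 0.

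The genes whose profile was most like that of Meis1 were sought by the root mean square distance between log2 profiles, each centred on its own mean over the 6 arrays, among genes with a mean log2 of at least 6. The mean of Meis1 itself, with 7.53 in LSK and 3.98 in LK, lies under this limit. Genes at a like level, Hoxa3 and Flt3 among them, were therefore left out and may lie closer than those named. The closest above the limit were Cobll1, related to an actin nucleator (distance 0.32), Hoxa10 (0.338), the endocytic scaffold gene Itsn1 (0.35), the GABA receptor gene Gabbr1 (0.351) and the glycosyltransferase gene Gcnt2 (0.408). Cobll1 had 8.49, 8.27 and 7.86 in LSK and 4.84, 4.86 and 3.89 in LK, so that it shared with Meis1 the lowest level on the arrays numbered 3 of both populations. Hoxa10 and Itsn1 shared this too. Gabbr1 (8.88), Hoxa10 (8.21) and Gcnt2 (12.08), like Meis1, were highest on LSK replicate 2 among the LSK arrays. The log2 differences of these 5 genes were 3.15 to 3.82 by the brightest probe set. With all sets of a gene averaged they were 1.90 for Cobll1, 2.09 for Hoxa10, 1.21 for Itsn1, 1.13 for Gabbr1 and 1.08 for Gcnt2, below the 2.99 of Meis1, and the likeness was measured on the brightest sets. The nearest other family member, Pbx2, lay at a distance of 1.32 and Pknox1 at 1.34, and the distances reflect the size of the difference as well as its pattern.

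**Figure D5:**
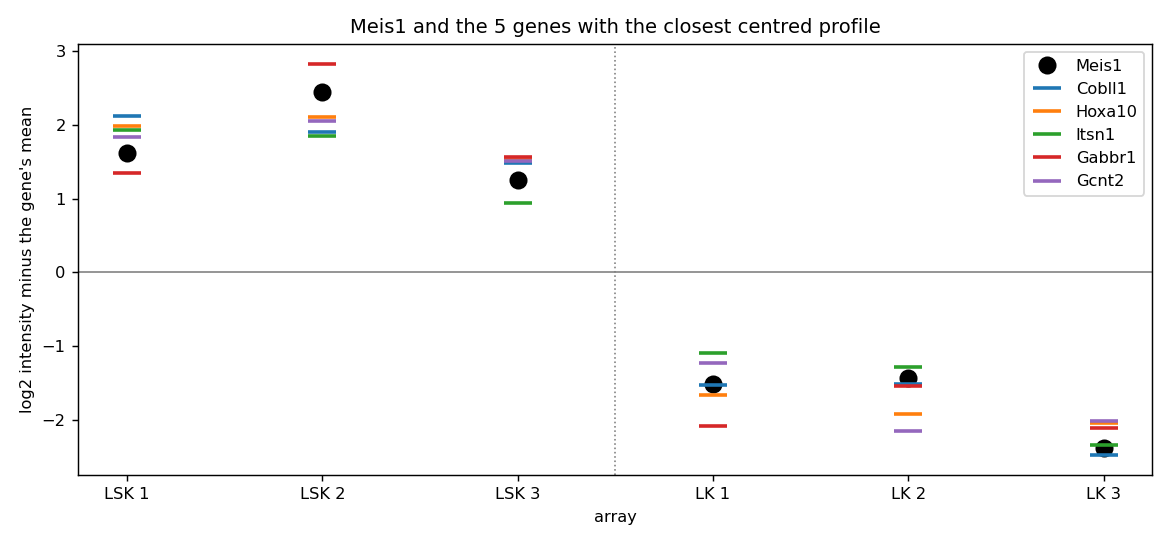
Log2 intensity minus the gene's own mean over the 6 arrays (vertical axis) for Meis1 (black points) and the 5 genes with the closest profiles (coloured bars) on each array, LSK left of the dotted line and LK right. The 5 genes were taken from those with a mean log2 of at least 6. All 6 genes lie above 0 on the LSK arrays and below 0 on the LK arrays, which follows from choosing them by closeness to Meis1.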

How the data were processed

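Per the labels' protocols, RNA of the sorted cells (3 LSK and 3 LK samples) went through linear amplification and biotin labelling before hybridisation to an Affymetrix mouse array. The authors deposited linear probe set intensities, computed by RMA with affy and R 2.11.0 according to the submitters' processing notes. Since RMA evens out the distributions of the arrays, it hides any change common to all genes. The deposited intensities were still not fully alike. Their upper quartile was 22 in LSK replicate 2 and 20.7 in LK replicate 2, against 24.2 to 25.7 on the other arrays.

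The log2 of the deposited intensities was taken. Of 45101 probe sets, 64 controls were left out of the tests, and 34945 carried exactly 1 symbol in the platform annotation, of which 34741 were updated by gene identifier in RefSeq (GRCm38.p6). No coordinates were taken for array features, as no build is given for them. The brightest probe set by mean log2 stood for each of 18193 genes. The fit was LSK minus LK in limma 3.58.1 under R 4.3.3 (lmFit, eBayes, no term but population, two-sided p), adjusted by Benjamini-Hochberg over all genes or all probe sets and a threshold of 0.05. The fit was tested on simulated data. Lists are described by counts and medians.

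The members, lists and alternatives were chosen with earlier results of these data known. The genes named were the members, the 2 list genes with the largest difference past the threshold in each direction or that with the lowest p, the brightest and the most different marker of each marker list, and the 5 genes most like Meis1 among those with a mean log2 of at least 6. Other list genes were named after their values were seen.

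Arrays with the same number deviated together from their population means (correlation across genes 0.417, 0.433 and 0.273), which the labels do not explain. The main fit and its p-values leave this pairing out. The numbers pair the samples only in the blocked fit and in the differences given within pairs. The blocked value is given for results whose call it changes. Among the 15 pairs of arrays, 0 were identical.

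Alternatives tried were the replicate block, a second normalisation (quantile or cyclic loess), leaving dim genes untested, averaged probe sets, trend and robust variances, array weights, the 3' bias of each array (Actb and Gapdh 3' minus 5' control sets) as a covariate, both arrays numbered 2 left out and each array left out in turn. The same alternatives for the list counts and list genes were added after seeing the data.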

Additional observations from a re-analysis of the deposited data

How the results depend on the processing

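The Meis1 difference stayed above 0 in all 15 alternatives, between 2.99 and 3.81, and kept its call in 14. It lost the call with the 3' bias as a covariate (3.18, adjusted p = 0.167), where 0 members and 0 member probe sets passed (limma), the log2 difference of Pknox1 turned to -0.30, and 25 genes of the array passed. That setting uses up 1 degree of freedom and follows the population, which limits what it can show. The count of members was 2 under quantile normalisation, cyclic loess normalisation, the filter on dim genes and trend and robust variances, with Pbx2 added at log2 differences of 1.33, 1.44, 1.32 and 1.32. The replicate block changed no member's call, but 2617 genes passed with it, 2606 with array weights and 537 without both arrays numbered 2, against 1225 in the main comparison. Leaving out 1 array in turn gave 306 to 1269 genes, 1 member in each fit and 2 to 4 member probe sets. These fits gave log2 differences of 3.21 to 3.81 for Meis1, -0.24 to 0.86 for Meis2 (below 0 without LSK replicate 2), 0.19 to 0.36 for Meis3, 0.92 to 1.57 for Pbx2, 0.22 to 1.33 for Pbx3, 0.31 to 0.64 for Pbx4 and 1.06 to 2.20 for Pknox1. Meis3 and Pbx4 have means under a log2 of 4 in LSK as well as in LK, and Meis1 and Meis2 in LK alone (3.98 and 3.64), which limits what the arrays can show of them, the fold of Meis1 being against a dim group, and the filter left Meis2, Meis3 and Pbx4 untested. Of the alternatives, those not named here kept each member's direction and call; the cause of the changes was not tested.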
